A study of Rattus norvegicus with 6 samples.

Results

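The segment chr6:134000000-134500000 of the rat genome (build rn4, per the file headers) was one of the places where the methylation array of this study carried dense probes over long unbroken distances. All probes with coordinates inside these bounds were taken, which gave 1120 of the 172669 probes on the array. The rule is one of position and uses no measured value. The files pair the probes with no gene, so genes, exons and other annotations were not analysed here.

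The arrays came from cardiac muscle of newborn Sprague-Dawley (SD) rats at day 1 of age. In the control group (3 arrays) the mothers had received saline during pregnancy, and in the PM2.5 group (3 arrays) a suspension of fine airborne particles. Per the labels' protocols, a volume of 30 µL was dripped into the trachea under ether in both groups, and the protocol speaks of several particle concentrations without saying which one these arrays had. The labels call the samples biological replicates. They do not say whether the pups came from separate litters, so p-values measure only the spread between these samples. The sex of the pups is not given in the sources used here.

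Methylation in mammalian DNA lies mostly on cytosines that precede a guanine. In methylated DNA immunoprecipitation (MeDIP) an antibody against methylated cytosine pulls fragments out of sheared DNA, and the pulled-down DNA is compared with untreated input DNA on a tiling array. A stretch with many methylated sites is captured well, while a stretch with few such sites is captured poorly even where every site is methylated, so the level at one place cannot be read as the share of methylated sites. Here the immunoprecipitated DNA was labelled with Cy5 and the input with Cy3. The value of a probe is the log2 ratio of Cy5 over Cy3, centred on the median of its array. A value of 0 is the middle of the array, and a difference of 1 is a factor of 2 in relative capture.

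The 1120 probes fell into 5 tiled regions, in which neighbouring probes were at most 1000 bp apart. The proximal stretch, chr6:134098852-134155478, held 307 probes over 56627 bp. The distal stretch, chr6:134339829-134439545, was the longest, with 538 probes over 99717 bp. The locus had been described as holding this pair of dense stretches. The coordinates showed a further one between them, called the middle stretch here, at chr6:134168153-134210102 with 230 probes over 41950 bp. A gap of 129726 bp without probes separated it from the distal stretch. A short region of 34 probes at chr6:134091363-134097591 lay just before the proximal stretch, and one of 11 probes at chr6:134020741-134022500 lay apart from the rest. The median spacing of probe starts was 161 bp over the locus against 162 bp over the array, so the fabric of the tiling was like that elsewhere.

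Probe length differed along the locus, and the ratio moved with it. Probes measured between 45 and 60 nt. The longest class, 60 nt, made up 3.58% of the proximal, 4.78% of the middle and 13.6% of the distal stretch, against 13.7% of the array. The shortest class, 45 nt, made up 51.8%, 57.0% and 40.9% of these stretches and 48.7% of the array. Probes of both sets were present in each stretch, but the distal stretch held a larger share of long ones than the other two.

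Spot quality was like that of the whole array. Input DNA was well above background on all 6 arrays at 928 of the 1120 probes. The Cy5 signal was well above background on all arrays at 779 probes (69.6%, against 65.5% of the array) and on none at 174 probes (15.5%, against 20.2%). On PM2.5 replicate 1, 36.3% of the spots of the locus carried the scanner's mark for uneven or outlying spots (35.8% over the whole array). The other arrays had between 0.714% and 2.32% marked. Largely through that array, 495 probes of the locus (44.2%; 41.0% over the array) were both bright enough in the input and unmarked on all 6 arrays, and the means given here rest on these. They comprised 143 probes of the proximal, 106 of the middle, 224 of the distal stretch, 17 of the second short region and 5 of the first. On PM2.5 replicate 1 the locus profile also stood further from the others. Over the 495 probes its correlation with the other arrays ran from 0.82 to 0.84, while the remaining pairs of arrays correlated at 0.89 to 0.97. Over all used probes of the array the same figures were 0.83 to 0.85 and 0.90 to 0.98. Results are therefore also given without that array where it matters.

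The proximal stretch was captured best of the 3 long stretches and the middle stretch least. Its mean log2 ratio was -0.36, -0.38 and -0.43 on control arrays 1 to 3, and 0.05, -0.25 and -0.27 on PM2.5 arrays 1 to 3. The highest of these values is that of PM2.5 replicate 1, and every PM2.5 value lay above every control value.

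The middle stretch read -0.67, -0.75 and -0.83 on the controls and -0.34, -0.51 and -0.52 on the PM2.5 arrays. For the distal stretch the values were -0.61, -0.74 and -0.77 on the controls, and -0.29, -0.48 and -0.50 after PM2.5. Both stretches lay below the proximal one on each of the 6 arrays. The difference, averaged over arrays, was -0.33 for the middle and -0.29 for the distal stretch (each 6 of 6 arrays, two-sided exact sign-flip permutation p = 0.03125, the smallest that 6 arrays allow).

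The 2 short regions covered little ground. The second short region read -0.39, -0.49 and -0.54 on the controls and -0.20, -0.34 and -0.26 on the PM2.5 arrays, and its groups did not overlap. The first short region, with 5 probes, read -0.11, -0.08 and -0.02 on the controls and 0.07, 0.24 and -0.12 on the PM2.5 arrays, and its groups overlapped.

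The ratio was lower at longer probes, so the levels were also set against probes of the same length. Among the 495 probes the correlation of mean ratio with length was -0.50. On each array, the mean of all other used probes of equal length was subtracted from each probe. The locus as a whole then lay slightly under such probes, by -0.05, -0.07 and -0.10 on the controls and -0.10, -0.03 and -0.0016 on the PM2.5 arrays. The mean over arrays was -0.06 (6 of 6 below, exact sign-flip permutation p = 0.03125), but with medians over probes in place of means it was 0.01 with p = 0.3125 (exact sign-flip permutation). The direction for the locus as a whole thus depends on the summary over probes.

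Within the locus the order of the stretches remained. The proximal stretch lay 0.07 above probes of its lengths, with values from 0.05 to 0.10 on the arrays. The middle stretch lay below them, at a mean of -0.21 and between -0.29 and -0.11. The distal stretch lay at -0.08, between -0.13 and -0.02. Each of these 3 signs held on 6 of 6 arrays (exact sign-flip permutation p = 0.03125). Every array carries the same probes, so these p-values, here and for other differences in level, show that a sign repeats between arrays. They do not tell a stretch apart from a fixed effect of its probes. The height of the proximal stretch rests on which probes are used: with PM2.5 replicate 1 and its marks left out, 898 probes of the locus could be used and the proximal value fell to 0.0082.

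Differences between the stretches kept their sign under that choice. At equal length the middle stretch lay below the proximal one, by a difference of -0.28, with -0.26, -0.32 and -0.35 on the controls and -0.35, -0.21 and -0.21 on the PM2.5 arrays. The distal stretch lay below the proximal one too, by a difference of -0.15, with -0.09, -0.21 and -0.17 on the controls and -0.22, -0.10 and -0.12 on the PM2.5 arrays. The distal stretch lay 0.13 above the middle one, from 0.09 to 0.18. All 3 differences had one sign on 6 of 6 arrays (exact sign-flip permutation p = 0.03125 each). Without PM2.5 replicate 1 and its marks the first was -0.17 and the second -0.06.

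The profile along the locus was not flat within a stretch. It was read in windows of 5 kb counted from the start of the locus, of which 42 held at least 5 used probes, with a median of 12. Mean ratios of the windows ranged from -1.87 to 0.37 over all arrays, with a median of -0.40. On all 6 arrays, 25 windows lay below the array median and 2 above it, and 15 had both signs. Levels under 0 were also usual outside the locus. Averaged over arrays, 6 of the 42 windows lay above 0, and 1005 of the 5232 windows of the array did. The used probes of the whole array averaged -0.50 on this scale. The locus lay 0.02 above them (5 of 6 arrays, exact sign-flip permutation p = 0.09375).

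The best captured window was the last of the proximal stretch with enough used probes, chr6:134150001-134155000. Its 10 used probes had Cy5 well above background on all arrays. It read 0.32, 0.45 and 0.48 on the controls and 0.23, 0.35 and 0.39 on the PM2.5 arrays. The groups overlapped, and the window was the only one of the 42 with a lower mean after PM2.5 (change -0.09, limma adjusted p = 0.584). The sign of this change depended on the processing and was the opposite in 3 of 22 other settings. It was 0.07 with no filter on dim probes and 0.01 in the authors' deposited table of log2 values. The window stood next to one of the opposite kind. The 5 kb before it, chr6:134145001-134150000, read -0.62, -0.77 and -0.86 on the controls and -0.23, -0.50 and -0.44 on the PM2.5 arrays. At equal probe length these neighbours differed in sign on every array: the higher one lay between 0.21 and 0.89, its neighbour between -0.56 and -0.19.

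Near the other end of the proximal stretch capture was high as well. The window chr6:134100001-134105000 lay 0.35 above probes of its lengths (0.30 to 0.41 on the arrays), the next one 0.37 (0.27 to 0.45) and the one after that 0.25 (0.11 to 0.31). Over the 7 windows that followed, up to the low one described above, the means at equal length were 0.02, 0.14, -0.15, -0.10, -0.04, -0.26 and -0.36. The proximal stretch thus had high windows near both ends and a low part before the window at 150 kb. Its outermost probe, Ch_49442_0135352 at chr6:134155419-134155478, lay past that window and was low. It read -2.66, -2.77 and -2.99 on the controls and -1.96, -1.28 and -0.94 on the PM2.5 arrays. Cy5 was well above background there on 0 control arrays and 1 PM2.5 array.

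The least captured window of the locus lay in the distal stretch, at chr6:134380001-134385000. It read -1.77, -2.46 and -2.53 on the controls and -1.57, -1.53 and -1.34 on the PM2.5 arrays. The groups did not overlap. Its 9 used probes had a mean length of 58.1 nt, and none of the 9 had Cy5 well above background on all arrays, so it was measured at dim signal. Set against probes of equal length it lay at -0.46, between -0.76 and -0.12.

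The lowest window at equal length was in the middle stretch, chr6:134190001-134195000. It read -1.47, -1.59 and -1.74 on the controls and -0.79, -1.08 and -1.04 on the PM2.5 arrays. Relative to equally long probes it lay at -0.61, between -0.87 and -0.40. Of its 17 used probes, 8 had Cy5 well above background on all arrays. The following 5 kb rose to 0.12, -0.12 and -0.18 on the controls and 0.36, 0.06 and -0.06 on the PM2.5 arrays, which was 0.43 above equally long probes, and Cy5 was well above background on all arrays at each of its 10 probes. A step from low to high capture over adjoining windows was thus seen in the middle stretch as well as near the end of the proximal one.

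Length changed the reading most in the distal stretch. The window chr6:134365001-134370000 had a ratio near 0, with 0.09, -0.11 and -0.06 on the controls and 0.28, 0.12 and 0.16 on the PM2.5 arrays. Its 5 probes averaged 53.8 nt, and they lay 1.08 above other probes of their lengths (0.85 to 1.25), the highest value of the 42 windows. Next came chr6:134345001-134350000, with 12 probes averaging 51.8 nt and a value of 0.76 (0.61 to 0.94). The broad trough from 375 to 395 kb, by contrast, stayed low, with -0.51, -0.46, -0.52 and -0.23 in its 4 windows. Across the locus, 12 windows lay above equally long probes on all 6 arrays, 17 lay below, and 13 had both signs. Windows of 1 stretch ranged over more of the scale than the means of the stretches did. A window averages 5 to 19 used probes and a long stretch 106 to 224. Fewer probes widen the range by themselves, so this is a description and no evidence of structure along the locus.

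Single probes spanned a wider range than windows. In the proximal stretch the 3 highest mean control ratios were 1.27 ± 0.12 (SD, n = 3) for Ch_49442_0135095 at chr6:134107131-134107180, 1.24 ± 0.33 for Ch_49442_0135189 at chr6:134125687-134125731 and 1.19 ± 0.22 for Ch_49442_0135049 at chr6:134099448-134099493. After PM2.5 they read 1.02 ± 0.17, 0.90 ± 0.04 and 0.98 ± 0.10, which is given without a test, since the control ratio both chose these probes and enters the difference. In the distal stretch the highest were Ch_49442_0136044 at chr6:134423672-134423716 with 1.44 ± 0.37, Ch_49442_0135634 at chr6:134349560-134349615 with 1.37 ± 0.13 and Ch_49442_0135792 at chr6:134377429-134377473 with 1.15 ± 0.16 (SD, n = 3). The last of these lay inside the low window from 375 to 380 kb, so a well captured probe stood among poorly captured ones. Its value after PM2.5 was 0.72 ± 0.23. Cy5 was well above background on all arrays at these 6 probes.

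The lowest control ratios were near the floor. In the proximal stretch they were -4.12 ± 0.30 for Ch_49442_0135154 at chr6:134118216-134118271, -3.50 ± 0.40 for Ch_49442_0135295 at chr6:134145439-134145484 and -3.48 ± 0.70 for Ch_49442_0135273 at chr6:134141686-134141734 (SD, n = 3). The second of these had Cy5 well above background on 3 control arrays and 2 PM2.5 arrays, and read -2.59 ± 0.16 over the 3 PM2.5 arrays. Of the other two, the first had bright Cy5 on 0 arrays and the last on 1 control array alone. In the distal stretch the lowest were Ch_49442_0135705 at chr6:134361616-134361675 with -4.28 ± 0.08, Ch_49442_0135849 at chr6:134388949-134389007 with -4.12 ± 0.09 and Ch_49442_0135988 at chr6:134413762-134413807 with -3.90 ± 0.56. Cy5 was not well above background on any of the 6 arrays at these 3, so no difference is given for them.

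The comparison of the groups asked whether the locus was captured differently in hearts of pups whose mothers had received PM2.5. The mean ratio of the locus was -0.54, -0.62 and -0.67 on the controls and -0.19, -0.41 and -0.42 on the PM2.5 arrays. The groups did not overlap, and the change was 0.27 (two-sided exact permutation p = 0.1, the smallest that 3 against 3 allows). The used probes of the whole array changed by 0.26 on the same scale. Set against these, the locus changed by 0.0036 (exact permutation p = 1), so the locus shifted by about as much as the array did.

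The stretches shifted together. The change was 0.23 in the proximal, 0.30 in the middle and 0.29 in the distal stretch, with groups apart in each (exact permutation p = 0.1 each). The change of the distal stretch exceeded that of the proximal one by 0.05, and the arrays of the groups overlapped in this difference (exact permutation p = 0.2). In the authors' deposited table of log2 values that difference was -0.00029. Of the 5 regions, 4 had groups that did not overlap. The share among all tiled regions of the array was not counted, so this is not read as a trait of the locus. The size of the shift depends on the centring. With a common set of probes for centring (those without a mark on any array), all values of the change fell by 0.19, to 0.05 in the proximal (exact permutation p = 0.5) and 0.10 in the distal stretch (exact permutation p = 0.1). The first short region then changed by -0.05. Without PM2.5 replicate 1 the changes of the proximal and distal stretches were 0.13 and 0.22.

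Scan days divided the arrays unevenly. On the first day, with control replicate 1 and PM2.5 replicate 3, the locus differed by 0.11 and the used probes of the array by 0.09. On the second, with controls 2 and 3 and PM2.5 replicate 2, these differences were 0.24 and 0.21. PM2.5 replicate 1 was the only array of its day. The direction was the same on both days. With the day as a block, the changes of the proximal and distal stretches were 0.13 and 0.20.

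No tiled region passed the test over all regions of the array. In limma the Benjamini-Hochberg adjusted p was 0.525 and 0.282 for the first and second short regions, 0.261 for the proximal, 0.147 for the middle and 0.164 for the distal stretch. Among all 14786 regions tested, 9.79% were called higher and 0.0473% lower. Of the 5, only the middle stretch was higher at an unadjusted p under 0.05, and 0 were lower. Of all regions, 32.5% were higher and 0.622% lower by that measure.

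Calls in windows of 5 kb were unevenly placed along the locus. In limma over 5232 windows of the array, 7 of the 42 in the locus (16.7%) were called higher after PM2.5 and 0 lower, where 24.1% of all windows were called higher and 0% lower. The share in the locus was the smaller, a difference that was not tested. By unadjusted p under 0.05, 13 windows of the locus were higher and 0 lower, where 42.6% of all windows were higher and 0.0765% lower. The 7 called lay at 170 and 190 kb in the middle stretch and at 340, 375, 380, 385 and 390 kb in the distal stretch, of 8 and 20 windows there. Of the 11 in the proximal stretch, 0 were called. The nearest there were chr6:134145001-134150000, with a change of 0.36 (limma adjusted p = 0.0586), and chr6:134140001-134145000, with 0.34 (limma adjusted p = 0.0798).

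The called windows had mean ratios well under the median of their array, but not every such window was called. The window chr6:134185001-134190000, at -1.04 over all arrays, was not (limma adjusted p = 0.246). The called window chr6:134340001-134345000, at -1.16, held long probes of 56.0 nt on average and lay at 0.0047 relative to equally long probes, with both signs over the arrays. The window chr6:134190001-134195000, whose values on each array are given above, changed by 0.63 ± 0.13 (SE, limma adjusted p = 0.0192). The window chr6:134380001-134385000, measured at dim Cy5 throughout, was called with a fitted change of 0.78 ± 0.18 (limma adjusted p = 0.0218). With each probe length centred by itself its change was 0.29 and it was not called (limma adjusted p = 0.253). Its neighbour chr6:134385001-134390000 read -1.04, -1.20 and -1.23 on the controls and -0.32, -0.85 and -0.80 on the PM2.5 arrays, a change of 0.50. The lowest change among the called windows was 0.39, at chr6:134170001-134175000, with -0.69, -0.77 and -0.74 on the controls and -0.21, -0.42 and -0.39 on the PM2.5 arrays. That window differs from the rest in detection: Cy5 was well above background on all arrays at 17 of its 19 probes.

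Sorted by mean level over all arrays, 4 of 5 windows under -1 were called, 3 of 10 between -1 and -0.5, 0 of 21 between -0.5 and 0, and 0 of 6 above 0. In the array the shares in these classes were 66.9%, 31.5%, 6.57% and 0.0995%. The median change in the locus was 0.46, 0.35, 0.17 and 0.18 in the classes, and in the array 0.50, 0.36, 0.21 and 0.05. The change thus declined with the level in both, apart from the top class of the locus with its 6 windows. Across the 42 windows the correlation of change with level was -0.81; the values share arrays, and the level and the change share the PM2.5 and control means, so this is a description. In the called windows 52 of 97 used probes (53.6%) had Cy5 well above background on all arrays, and in the other 35 windows 286 of 393 (72.8%). The part of dim Cy5 signal in these calls was not tested beyond the subset of bright probes given further on.

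Direction was more uniform than the calls. The mean was higher after PM2.5 in 41 of the 42 windows, with a median change of 0.20 against 0.27 over all windows of the array. The change lay above that array median in 16 of the 42. The share of all windows with a higher mean was not counted. The groups did not overlap, with PM2.5 higher, in 29 windows (69.0%, where 48.9% of all windows did), and with PM2.5 lower in 0 (0.975% of all). With the common centring, 24 windows instead of 41 had the higher mean and 2 were called. In the authors' deposited table the mean was higher after PM2.5 in 28, with differences between -0.11 and 0.18, and limma called 0, with 0 windows at an unadjusted p under 0.05. The count of calls also depended on single arrays. Without control replicate 2, and without control replicate 3, limma called 0 windows, with 8 and 7 higher at an unadjusted p under 0.05. Without control replicate 1 or without PM2.5 replicate 2, 4 windows were called. The share of all windows called was not counted in these other settings.

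Among single probes, the share called was near that of the array. Of 914 probes tested in limma, 13 were called higher (1.42%, where 1.33% of all 133485 were) and 0 lower (0.00524% of all). By unadjusted p under 0.05, 140 were higher and 22 lower, where the array had 14.7% higher and 3.21% lower. With the common centring named above, these were 98 and 66, and 9 were called. The called probes were spread over the locus, with 7 in the distal, 4 in the middle and 1 in the proximal stretch and 1 in the second short region. Without control replicate 2, and without control replicate 3, 0 were called, and without PM2.5 replicate 1, 25. With the slide, inferred from the scan date entry, as a random block, limma called 0. By unadjusted p under 0.05, 109 were then higher and 6 lower. The share called over the array was not counted in these other settings.

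Most called probes were dim. Of the 13, 10 had Cy5 well above background on no control array and 8 on no array at all, so their differences are not given as changes in capture. Both channels were well above background on all arrays at 2. The first was Ch_49442_0135474 in the middle stretch, at chr6:134189770-134189817, which read -2.23, -2.50 and -2.46 on the controls and -1.35, -1.23 and -1.24 on the PM2.5 arrays. The groups did not overlap, and the change was 1.12 ± 0.15 (SE, limma adjusted p = 0.0297). With only probes bright in both channels, limma called 0 probes of the locus, so this probe was not called there. The probe borders the low window that starts at 190 kb. The second was Ch_49442_0135753 in the distal stretch, at chr6:134370373-134370421, with -1.82, -1.84 and -1.85 on the controls. It read -0.36 on PM2.5 replicate 1 and -0.75 on replicate 3, and was marked on replicate 2, and that array was left out of its fit (change 1.28 ± 0.19, limma adjusted p = 0.0361).

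Among used probes whose groups did not overlap, 123 of 495 (24.8%) were higher after PM2.5 and 17 (3.43%) lower. Over the array these shares were 24.1% and 4.42%. The 5 with the largest rise lay at 4 places of the distal stretch and 1 of the middle stretch. At 4 of them, Ch_49442_0135476, Ch_49442_0135850, Ch_49442_0135919 and Ch_49442_0135601, Cy5 was not well above background on any array. The other, Ch_49442_0135608 at chr6:134344821-134344872, had it on 1 control array and 2 PM2.5 arrays. It read -3.12, -3.53 and -3.29 on the controls and -1.63, -1.67 and -2.11 on the PM2.5 arrays, mostly at dim Cy5, so no change is given.

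The largest falls were smaller, and 3 of the 5 lay at probes with a control ratio above 0. Ch_49442_0135147 in the proximal stretch, at chr6:134116953-134116997, read 0.93, 0.85 and 1.15 on the controls and 0.57, 0.38 and 0.11 on the PM2.5 arrays. Its change was -0.62 ± 0.18 (SE, limma adjusted p = 0.115), with Cy5 well above background on 3 control arrays but 1 PM2.5 array. Ch_49442_0135771 in the distal stretch, at chr6:134373956-134374000, read 0.72, 0.55 and 0.68 on the controls and 0.43, 0.26 and -0.13 on the PM2.5 arrays (change -0.46, limma adjusted p = 0.229). Ch_49442_0135215 in the proximal stretch, at chr6:134130381-134130425, read 0.08, 0.55 and 0.17 against 0.01, -0.17 and -0.50 (change -0.49, limma adjusted p = 0.244). Cy5 was well above background on all arrays at Ch_49442_0135771 and Ch_49442_0135215. The remaining probes, Ch_49442_0135700 at chr6:134360760-134360804 and Ch_49442_0135455 at chr6:134186118-134186162, changed by -0.63 and -0.55 with limma adjusted p of 0.185 and 0.128. Cy5 was well above background at Ch_49442_0135700 on 2 control arrays and 1 PM2.5 array, and at Ch_49442_0135455 on 3 and 2. These falls were thus partly measured at dim Cy5. All 5 of these probes were 45 nt long, and none passed the test.

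The spread of the ratio over the locus was narrower after PM2.5. Its standard deviation over the 495 probes was 1.13, 1.19 and 1.26 on the controls and 1.04, 0.93 and 0.90 on the PM2.5 arrays. The groups did not overlap and differed by -0.24 (exact permutation p = 0.1, the smallest possible), and the used probes of the whole array differed by -0.26. It was also seen within the stretches, at -0.24 in the proximal, -0.20 in the middle and -0.26 in the distal stretch. With length removed it was -0.17 over the locus. With scale normalisation between arrays the difference was -0.08 (exact permutation p = 0.6), and in the authors' deposited table -0.02.

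The change was larger at longer and dimmer probes. Probes of 45 nt in the locus, 209 in number, read -0.10, -0.11 and -0.10 on the controls and 0.18, -0.09 and -0.15 on the PM2.5 arrays. These groups overlapped (change 0.09, exact permutation p = 0.7). The 29 probes of 60 nt read -2.19, -2.27 and -2.54 on the controls and -1.48, -1.73 and -1.59 on the PM2.5 arrays, a change of 0.73 (exact permutation p = 0.1). Between these classes the change was 0.26 at 46 to 49 nt, 0.44 at 50 to 54 nt and 0.51 at 55 to 59 nt, with 126, 91 and 40 probes and groups apart in each. In the rest of the array the changes were 0.03 at 45 nt, 0.28, 0.42 and 0.54 in the classes between, and 0.59 at 60 nt. Under the common centring each of these changes is lower by 0.19, which turns those of the 45 nt probes negative. The gap between the shortest and the longest probes of the locus was 2.23 ± 0.19 in the controls and 1.58 ± 0.12 after PM2.5 (SD, n = 3 each).

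Where both channels were well above background on all arrays, at 338 of the used probes, the locus read -0.10, -0.14 and -0.14 on the controls and 0.17, -0.05 and -0.06 on the PM2.5 arrays. The change was 0.14, with groups that did not overlap (exact permutation p = 0.1). At the other 157 probes, where Cy5 was not well above background on some array, the values were -1.49, -1.67 and -1.81 against -0.98, -1.18 and -1.20, a change of 0.54 (exact permutation p = 0.1). With the bright probes alone, limma called 0 probes of the locus (87 higher and 23 lower had an unadjusted p under 0.05) and 1 window. Measured this way the changes of the proximal and distal stretches were both 0.11.

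Set against equally long probes, the PM2.5 and control arrays overlapped at each stretch. The change was 0.02 in the proximal (exact permutation p = 0.4), 0.07 in the middle (exact permutation p = 0.3) and 0.02 in the distal stretch (exact permutation p = 0.6). For the whole locus it was 0.03 (exact permutation p = 0.4). With each probe length centred by itself, limma called 0 probes and 0 windows of the locus, where 111 probes were higher, 49 probes lower and 7 windows higher by unadjusted p under 0.05. The array held another densely probed cluster, at chr1:115312109-116712483, with 1138 probes. That cluster lay at -0.28 relative to equally long probes, and the chromosome 6 locus lay 0.22 above it (6 of 6 arrays, exact sign-flip permutation p = 0.03125). The change against equally long probes was 0.03 at the locus, where the groups overlapped. At the chromosome 1 cluster it was 0.04, and every PM2.5 value lay above every control value (exact permutation p = 0.1). The difference between the loci changed by -0.01 between controls and PM2.5 (exact permutation p = 0.9).

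Among the 89 tiled regions of the array with at least 100 probes, the mean ratio was higher after PM2.5 in 89, and under the common centring in 77. The median change was 0.33, and 7 of the 89 were called by limma over all regions. The 3 long stretches of the locus changed by less than that median.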

How the data were processed

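Each of the 6 arrays compared immunoprecipitated DNA (Cy5) with its own input DNA (Cy3). The deposited scanner files give spot intensities from Feature Extraction 11.0.1.1. Background subtraction, detrending and dye normalisation had been applied to the processed intensity, per the file headers. A table of log2 values deposited by the authors, of unstated scale and smoothing, was used as an alternative. The members and the tests were chosen with earlier results of these data known.

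Log2 ratios of processed signals were computed in R 4.3.3 with data.table (version 1.17.8). Marked and control spots were dropped. A probe was kept if its Cy3 was above background throughout, used if also unmarked on every array, and centring subtracted each array's median over its unmarked kept probes. Probes (at least 2 unmarked arrays per group), tiled regions (gaps of at most 1000 bp, at least 2 used probes) and windows of 5 kb (at least 5) were fitted with lmFit and eBayes of limma 3.58.1 over the whole array, with Benjamini-Hochberg adjusted p under 0.05. The windows were added after seeing the data. Two-sided exact permutation tests compared the array means. The tests were tested on simulated data. The number of arrays limits the precision.

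Named were regions with at least 10 used probes, the 3 highest and 3 lowest probes of the proximal and distal stretches by control ratio, the 5 largest rises and falls among used probes with groups apart, and the highest and lowest windows. Other windows and the called probes with bright Cy5 were chosen after their values were seen. Controls 2 and 3 have the same scan date entry in the file headers and were taken to share a slide. The slide correlation of 0.57 was estimated from the 3 controls alone. Control 1 was scanned on another day, so slide and day cannot be told apart. The tests treat controls 2 and 3 as independent arrays.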

Additional observations from a re-analysis of the deposited data

How the results depend on the processing

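Probes called in the locus, 13 as reported, were 0 in limma with normexp, scale or quantile normalisation, each length centred by itself, no filter on dim probes, only probes bright in both channels, the authors' table, the slide as a random block, or trended and robust variances. In all 11 settings at 0, between 51 and 152 probes were higher and 4 to 49 lower at an unadjusted p under 0.05. The count was 8 with loess, 49 with the scan day as a block (48 higher, 1 lower), and 23 with PM2.5 replicate 1 and its marks left out. Leaving out each array in turn gave 0 to 25. Windows called, 7 as reported, were 0 in limma with normexp, scale, quantile, length centring or the authors' table (0 to 9 higher, 0 lower at an unadjusted p under 0.05 in the 7 settings at 0). They were 4 with loess, 2 with common centring, 2 with marked spots kept, 2 with no filter on dim probes, 2 with the slide block, 1 with bright probes only, 1 with medians and 3 without PM2.5 replicate 1 and its marks. Leaving out each array gave 0 to 10. Tiled regions called were 0 throughout, with 0 to 2 higher at an unadjusted p under 0.05.

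Windows with a higher PM2.5 mean numbered 24 with common centring, and 40 to 41 with each array left out. Windows whose change lay above the median of all windows numbered 16 as reported, 27 with marked spots kept, 28 in the authors' table and 28 without PM2.5 replicate 1 and its marks, and 14 to 19 with each array left out. The difference in change between distal and proximal stretches reversed to -0.00029 in the authors' table.

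Levels against equally long probes lost p = 0.03125 (exact sign-flip permutation) in several settings. Without PM2.5 replicate 1 and its marks there is an array fewer and p cannot go below 0.0625. The loss of p in that setting was therefore fixed in advance. The locus lay at -0.0523 with no filter, -0.0282 in the authors' table and -0.0528 without PM2.5 replicate 1 and its marks, and reversed to 0.0117 with medians. The proximal stretch lay at 0.0189 with loess, 0.0189 with marked spots kept, 0.0438 with no filter, 0.0281 in the authors' table and 0.00822 without PM2.5 replicate 1 and its marks. The distal stretch lay at -0.0402 with no filter, -0.0291 in the authors' table, -0.0320 with medians and -0.0551 without that array and its marks. In that last setting the middle stretch lay at -0.157, middle minus proximal was -0.165 and distal minus proximal -0.0633. With each array left out, where p cannot go below 0.0625, the ranges were -0.0688 to -0.0498 for the locus, 0.0693 to 0.0792 for the proximal, -0.230 to -0.193 for the middle and -0.0885 to -0.0672 for the distal stretch, -0.299 to -0.270 for middle minus proximal and -0.163 to -0.138 for distal minus proximal.

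No pairing of the samples by replicate number is stated. The deviations of same-numbered arrays correlated at -0.01, 0.11 and -0.15. Deviations within a group of 3 arrays depend on each other, so these values cannot tell whether the samples were paired. With the replicate number as a block, 38 probes and 12 windows were called, with changes of 0.23 and 0.29 in the proximal and distal stretches as before. The counts of calls under other settings are of the locus alone. The share called over the whole array was not counted there, so a movement in the locus cannot be told from one of the array. The causes of these movements were not tested. Counted were 623 values of single probes, regions, windows and the median change of locus windows minus that of all windows. Of these, 538 kept their direction and, where tested, their side of the threshold, and 42 kept only the direction. A further 25 passed the threshold newly and 18 moved otherwise. The difference in medians gave 22 of the values, without a p-value: 15 kept their direction and 7 moved. Dim Cy5 limits the lowest ratios.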

Other observations

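Neighbouring probes of the locus shared part of their ratio. Over 165 pairs of adjoining used probes at most 200 bp apart, the correlation at equal length ran from 0.07 to 0.23 on the 6 arrays. It was higher, from 0.25 to 0.38, over 39 pairs at 200 to 300 bp (0.12 to 0.16 on the array), and ran from 0.08 to 0.15 over 150 pairs at 300 to 500 bp. Over 108 pairs at 500 to 1000 bp it ran from 0.03 to 0.14. On the array the ranges for the nearest and farthest pairs were 0.12 to 0.18 and 0.02 to 0.05. In the authors' deposited table, pairs at most 200 bp apart in the locus correlated at 0.83 to 0.89 and those at 500 to 1000 bp at -0.01 to 0.10. Its values correlated with the ratios of the same array at 0.83 to 0.87 over the probes of the locus.

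Runs of at least 3 neighbouring probes, each with an unadjusted limma p under 0.05 and one sign, numbered 8 in the locus, with 8 higher after PM2.5 and 0 lower. The array held 753, of which 742 were higher. The locus held 914 of the 133485 probes tested. The 2 longest in the locus had 6 probes each. One lay in the middle stretch at chr6:134190421-134191478, with a mean change of 0.94, inside the window of lowest level at equal probe length. In that window 8 of 17 used probes had Cy5 well above background on all arrays. The run spans the called probe Ch_49442_0135481, where Cy5 was well above background on 0 arrays, so its mean change rests partly on dim signal. The other run lay in the distal stretch at chr6:134374908-134375825, with a mean change of 0.84, at the edge of the broad trough.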
